A study of Mus musculus with 21 samples.

Results

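Islets of mice fed a high-fat diet that contained the AMPK activator O304 (HFD-O304) were compared with islets of mice fed the same high-fat diet without it (HFD). The comparison took the 7 HFD-O304 and the 7 HFD samples, 14 of the 21 RNA-seq samples of the series, grouped by their titles. Of the 55536 genes in the count files, 25849 had a summed count of at least 10 over these 14 samples and were tested. All mice were CBA males and were put on their diets at 10 weeks of age. Islets were taken at 20 weeks of age. The results text of the study gives 10 weeks of diet and its methods give 9 weeks. The O304 dose was 0.8 mg per g of diet. Each sample was RNA from 150 islets out of a pool from 5 mice, so a replicate is a pool and not a single animal. The third group of the series, 7 samples from mice on regular diet (RD), entered no test of this comparison except an alternative fit, and is otherwise given by its levels. HFD-O304 replicate 1 carries the diet tag HFD in its labels but is titled HFD-O304, and it was kept in the group of its title.

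AMPK is a heterotrimeric kinase that is switched on when cellular energy is low, and O304 activates all of its forms. The islet is a small organ of hormone cells inside the exocrine pancreas. Its beta cells make insulin and sense glucose, its alpha cells make glucagon, its delta cells make somatostatin, and capillaries and pericytes run between them. A diet rich in fat makes tissues resist insulin, which raises the demand on beta cells to fold, pack and release insulin and, in young mice, to divide.

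The HFD samples held 27618749 to 44041180 counted read pairs and the HFD-O304 samples 13809266 to 48922569, with HFD-O304 replicate 2 the shallowest of the 14. Markers of beta cells summed to 303830.0 to 345330.0 CPM (counts scaled to the depth of each sample) in HFD and 278250.0 to 312100.0 in HFD-O304 samples, and all 10 of these markers were detected. Exocrine carry-over varied widely within the groups, with acinar markers at 30.2 to 7239 CPM in HFD and 23.2 to 3386 in HFD-O304 samples. HFD replicate 2 and HFD-O304 replicate 1 were the lowest in acinar markers and also the lowest on the second principal component. The first component, with 42.7% of the variance of the 500 most variable genes, placed all 7 HFD samples (-39.4 to -0.76) below all 7 HFD-O304 samples (5.96 to 27.8), and HFD replicate 7 lay nearest to the other group. Replicates 1 to 4 and 5 to 7 carry different ranges of library numbers, and each group has samples in both sets.

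At a Benjamini-Hochberg adjusted p under 0.01 (edgeR quasi-likelihood test), 2826 of the 25849 genes differed between HFD-O304 and HFD islets (10.9%). Expression was higher in HFD-O304 for 1081 genes (4.18%) and lower for 1745 genes (6.75%). These shares are the background for the counts of list members given below. Among the genes that differed, the median absolute log2 fold change was 0.59 with a median SE of 0.10, and 741 of them differed by more than 1 on the log2 scale, 237 upwards and 504 downwards. The 7 samples of one group lay wholly above or below those of the other for 1549 of the 2826 genes. Without HFD replicate 2 and HFD-O304 replicates 1 and 2, an analysis added after the data were seen, 1763 genes passed (686 higher, 1077 lower), and 1731 of these were among the 2826. Proteins were encoded by 1001 of the genes that rose and 1646 of those that fell.

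**Figure D1:**
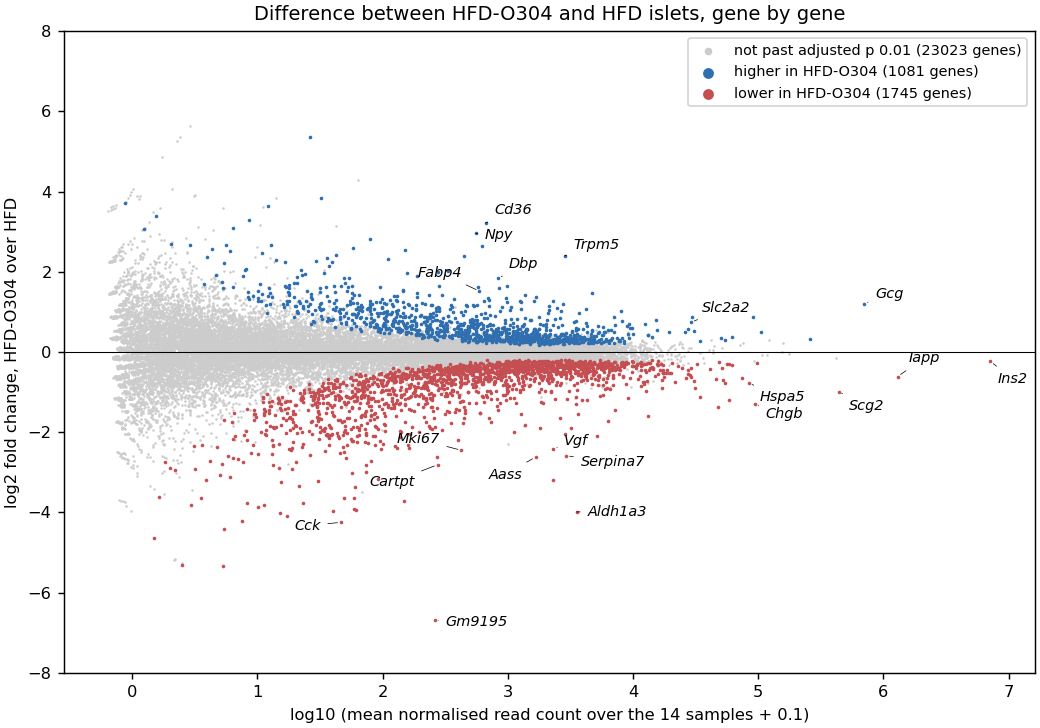
Each point is 1 of the 25849 genes tested, with the mean normalised read count of the 14 samples on a log10 axis (plus 0.1) and the log2 fold change of HFD-O304 over HFD on the vertical axis. Genes past adjusted p 0.01 are blue where higher in HFD-O304 (1081) and red where lower (1745), and a set of named genes is labelled. Aldh1a3 and Gm9195 lie far below and Cd36, Npy and Trpm5 far above the bulk of genes with similar read counts.

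The fatty acid receptor Cd36 and the fatty acid carrier Fabp4 were higher with O304. Cd36, which encodes a membrane receptor that takes up long-chain fatty acids, had the smallest adjusted p of all genes. Its normalised read count ranged from 106.04 to 149 (median 132) in HFD and 944 to 1413 (median 1229) in HFD-O304 samples. Every HFD-O304 sample exceeded every HFD sample, a 9.30-fold difference (log2 fold change 3.22 ± 0.11 (SE), adjusted p = 2.29e-13), while the RD median was 74.4. Fabp4, a cytosolic fatty acid carrier and a classical target of PPAR receptors, ranged from 269 to 336 (median 305) in HFD and 713 to 1036 (median 821) in HFD-O304 samples. The groups were again apart, by 2.86-fold (log2 fold change 1.52 ± 0.09 (SE), adjusted p = 6.9e-10), above an RD median of 138. For these 2 genes the order of medians was RD, HFD, HFD-O304, so that the level in HFD-O304 lay further from RD than the level in HFD.

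Among the 33 tested genes of lipid uptake, storage and PPAR action, 7 rose and 1 fell, with a median log2 fold change of 0.20 beside 0.02 over all genes tested. Pdk4 encodes a kinase that turns off pyruvate dehydrogenase, so that fat is burned in place of glucose. Pdk4 ranged from 319 to 578 (median 367) in HFD and 1038 to 1517 (median 1230.4) in HFD-O304 (log2 fold change 1.59 ± 0.13 (SE), adjusted p = 9.81e-08). Lpl, the lipase that frees fatty acids from lipoproteins, had medians of 2414 in HFD, 5615 in HFD-O304 and 5827 in RD. Vldlr, a lipoprotein receptor, rose 2.17-fold and Ppargc1a, a coactivator of mitochondrial biogenesis, rose 1.96-fold, the latter with HFD replicate 7 inside the HFD-O304 range (adjusted p = 0.00203). The log2 fold change of Ppargc1a was 1.51 in replicates 1 to 4 alone and 0.45 in replicates 5 to 7 alone, where it did not pass (adjusted p = 0.189). The single member that fell was Fabp5, named after its value was seen, at 129 against 93.1 (adjusted p = 0.00718). With each sample left out in turn its adjusted p ran from 0.00424 to 0.0183, and it passed in 5 of 14 such fits. It did not pass without HFD replicate 1, 2, 3 or 5, or HFD-O304 replicate 1, 3, 5, 6 or 7. In the enzymes of fatty acid oxidation 3 of 24 rose and 1 fell (12.5% and 4.17%, median 0.00). In sterol synthesis and lipogenesis 3 of 34 rose and 2 fell (8.82% and 5.88%, median 0.04). Over all genes tested 4.18% rose and 6.75% fell.

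Adipocytes and capillary cells also use Cd36 and Fabp4. Which cells carried the rise of these genes was not tested. Of 7 adipocyte markers, Adipoq, Cfd, Retn and Lep had 1 to 3 reads in total over the 14 samples, Cidec had 28, Plin1 had 151 and Fabp4 had 8865. Fabp4 was the only marker on that list to pass the test. Endothelial markers summed to 643 to 971 CPM in HFD and 548 to 829 in HFD-O304 samples. Of these 12 markers 0 were higher and 5 lower, against 4.18% and 6.75% of all genes tested.

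**Figure D2:**
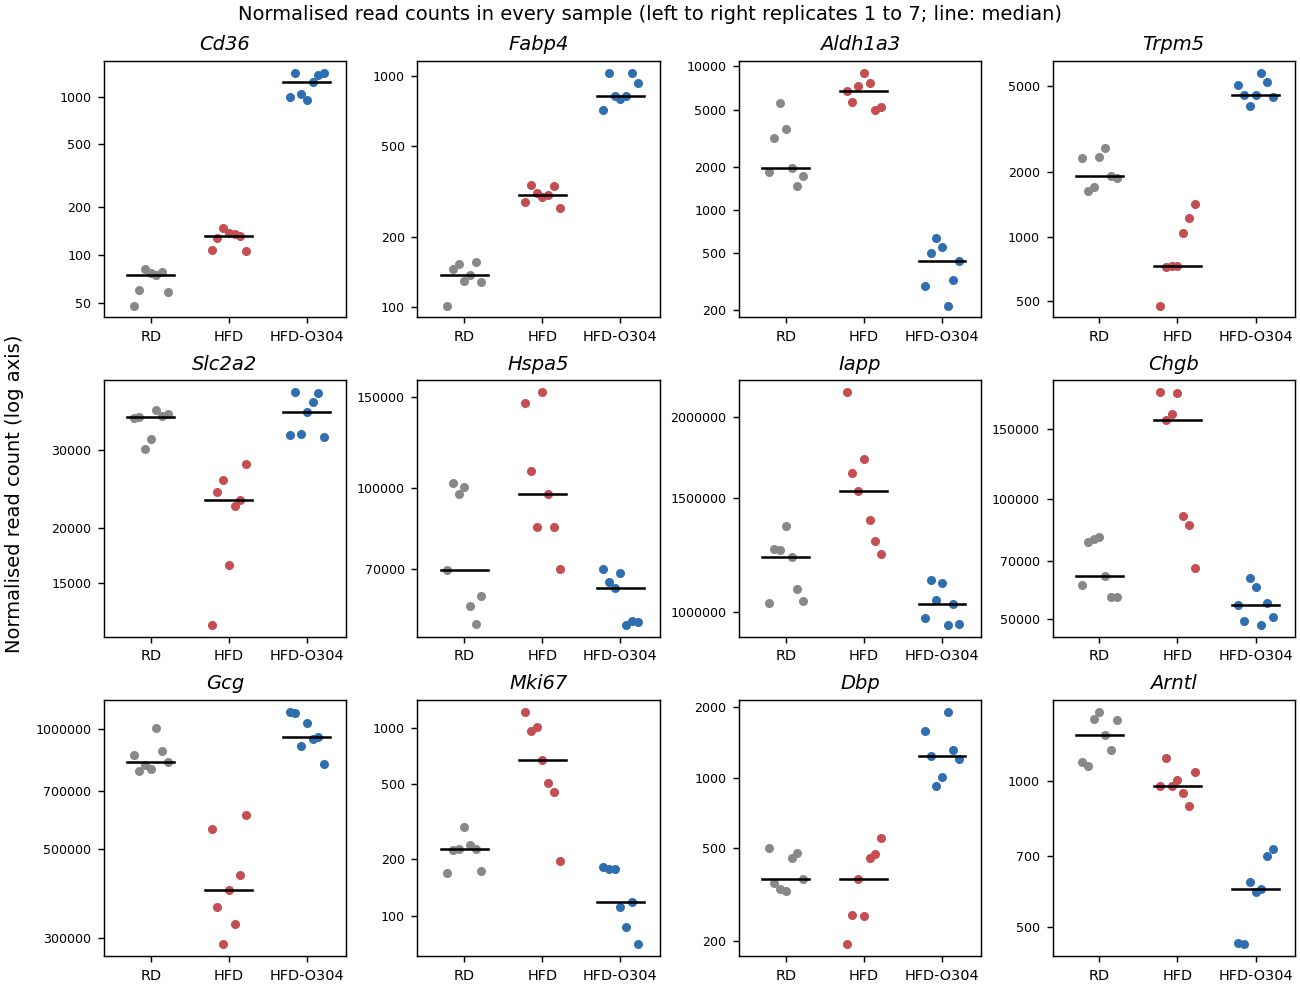
Normalised read counts of 12 genes in every RD (grey), HFD (red) and HFD-O304 (blue) sample, on a log axis for each gene. Points run from replicate 1 at the left to 7 at the right of each group, and the line is the median of 7. Cd36 and Fabp4 step up from RD to HFD to HFD-O304, Slc2a2 and Gcg are low in HFD alone, Aldh1a3 is high in HFD and lowest in HFD-O304, and the HFD samples of Chgb and Mki67 spread more widely than those of the other groups.

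Aldh1a3, an aldehyde dehydrogenase that makes retinoic acid and marks beta cells under metabolic stress, showed the largest fall of any gene with a mean above 1000 normalised reads. It ranged from 4934 to 9044 (median 6781) in HFD and from 215 to 634 (median 441) in HFD-O304 samples. All HFD-O304 samples lay below all HFD samples, and the fitted difference was 15.9-fold (log2 fold change -3.99 ± 0.21 (SE), adjusted p = 3.69e-10). The RD median was 1965, above all of the HFD-O304 samples. Serpina7, which encodes thyroxine-binding globulin, had medians of 4514 in HFD and 821 in HFD-O304 (log2 fold change -2.59 ± 0.24 (SE), adjusted p = 4.45e-07). Gast, the gene of gastrin, which adult beta cells normally keep silent, ranged from 29.6 to 96.2 (median 52.4) in HFD and 9.71 to 26.1 (median 14.7) in HFD-O304. In the list of stress and disallowed genes 5 of 21 fell and 1 rose, with a median of -0.16. Ldha, a disallowed glycolytic enzyme, did not pass (medians 369 and 288, adjusted p = 0.0852).

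Some of the transcription factors that hold beta-cell identity were higher. Of 23 tested, 6 rose (3 without HFD replicate 2 and HFD-O304 replicates 1 and 2) and 1 fell, and their median log2 fold change was 0.16. Isl1, a LIM-homeodomain factor of all islet hormone cells, ranged from 2424 to 2894 (median 2673) in HFD and 3229 to 3895 (median 3648) in HFD-O304 samples, with no overlap (log2 fold change 0.42 ± 0.06 (SE), adjusted p = 2.6e-05). Neurod1, a bHLH activator of the insulin gene, ranged from 2727 to 3616 (median 3246) and 3754 to 4828 (median 4262), also with no overlap (log2 fold change 0.40 ± 0.07 (SE), adjusted p = 0.000193). Myt1 and St18, zinc finger factors of the same family, rose by 0.54 and 0.27 on the log2 scale. Ucn3, a peptide of mature beta cells, was 1.42-fold higher (adjusted p = 0.00532), with adjusted p of 0.000265 to 0.0129 when each sample was left out in turn and 9 of 14 such fits past the threshold (not without HFD replicate 2 or 3, or HFD-O304 replicate 4, 5 or 6). Replicates 1 to 4 of Ucn3 ranged from 9660 to 15842 in HFD and from 21265 to 25727 in HFD-O304. Its replicates 5 to 7 overlapped, at 17516 to 22706 in HFD and 21975 to 23687 in HFD-O304.

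The factor that fell was Bhlha15 (MIST1), a regulator of secretory capacity (log2 fold change -0.57 ± 0.10 (SE), adjusted p = 0.00027). Pdx1, Nkx6-1, Mafa and Foxo1 did not pass. Pdx1 had medians of 6685 in HFD and 6712 in HFD-O304 (adjusted p = 0.858), and Nkx6-1 had 10919 and 12179 (adjusted p = 0.191). Mafa spread widely within both groups, from 4615 to 13329 (median 8481) in HFD and 6221 to 14366 (median 9215) in HFD-O304 (log2 fold change 0.40 ± 0.22, adjusted p = 0.247), and for Foxo1 the adjusted p was 0.0683.

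Slc2a2, the glucose transporter GLUT2 of rodent beta cells, ranged from 12038 to 27952 (median 23116) in HFD and 32109 to 40704 (median 36704) in HFD-O304 samples. No HFD sample reached the HFD-O304 range (log2 fold change 0.74 ± 0.14 (SE), adjusted p = 0.000517), and the RD median was 35656. In the list of glucose sensing and ChREBP targets 3 of 27 rose, among them Khk, the fructose kinase (1.64-fold), and 3 fell (median 0.01). The arrestin-like Txnip and Arrdc4, both strongly induced by glucose, had HFD medians of 14665 and 1294 and HFD-O304 medians of 9658 and 635. Arrdc4 passed the test (log2 fold change -0.84 ± 0.21 (SE), adjusted p = 0.00632) and Txnip did not (adjusted p = 0.0426). Without HFD replicate 7, Txnip passed too (adjusted p = 0.00748), whereas Arrdc4 passed in 5 of 14 fits that left out a sample (adjusted p 0.000453 to 0.0208). It did not pass without HFD replicate 1, 2, 3 or 4, or HFD-O304 replicate 1, 2, 5, 6 or 7.

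Genes of the endoplasmic reticulum (ER) that fold new proteins were lower with O304. Of 22 chaperones and folding enzymes, 18 fell and 0 rose, against 6.75% of all genes that fell, and the fold changes of all 22 were negative (median -0.64). Hspa5, the gene of the chaperone BiP, ranged from 70000.4 to 153233 (median 97272) in HFD and 54504 to 69778 (median 64096) in HFD-O304 samples. The lowest HFD sample lay just above the highest HFD-O304 sample, and the difference was 1.71-fold (log2 fold change -0.78 ± 0.14 (SE), adjusted p = 0.000432). Creld2, a secreted partner of ER stress, ranged from 5085 to 16261 (median 9163) in HFD and 3047 to 4709 (median 3809) in HFD-O304 and fell most (log2 fold change -1.45 ± 0.19 (SE), adjusted p = 1.99e-05). The prolyl isomerase Fkbp11 followed (log2 fold change -1.31 ± 0.16 (SE), adjusted p = 1.2e-05). The BiP cochaperone Dnajb11, its partner Sdf2l1, the secreted ER protein Manf, and the protein disulphide isomerases P4hb and Pdia6 fell by 0.71 to 0.94 on the log2 scale, all with no overlap. Canx, the lectin chaperone calnexin, did not pass (log2 fold change -0.06 ± 0.08, adjusted p = 0.67).

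Part of the genes of ER quality control and transport were lower too. Of 18 genes of ER-associated degradation and of the sensors of the unfolded protein response, 8 fell and 0 rose (median -0.32). Derl3, a channel of the degradation machinery, fell 3.73-fold, with 1185 to 3849.5 (median 2768) in HFD and 598 to 1109 (median 726) in HFD-O304 (log2 fold change -1.90 ± 0.19 (SE), adjusted p = 9.48e-07). The mannosidase-like Edem2, the adaptor Sel1l and the ubiquitin ligase Syvn1 fell by 0.55 to 0.75 on the log2 scale. Total Xbp1, a transcription factor that the response activates by splicing rather than by amount, did not pass (medians 12989 and 12204, adjusted p = 0.791). In translocation into the ER and ER-Golgi transport 18 of 37 genes fell and 0 rose (median -0.30), and without HFD replicate 2 and HFD-O304 replicates 1 and 2 there were 10 that fell. The signal peptidase subunit Sec11c (log2 fold change -1.09 ± 0.12 (SE), adjusted p = 1.98e-06), the translocon partner Ssr4 and the retrieval receptor Kdelr3 were among them. Targets of ATF4, the arm of the stress response that answers amino acid shortage, changed in 3 of 24 cases, all downwards, with the serine synthesis enzyme Phgdh at 1097 in HFD and 441 in HFD-O304.

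The ER stress response element, to which ATF6 and XBP1 bind with NF-Y, reads CCAAT, then 9 bases of any kind, then CCACG. It was searched on both strands of RefSeq promoter windows (GRCm38.p6, 250 bases before to 50 bases after each start site). A match was found for 37 of 27025 genes with a window (0.137%). Among the 18 chaperones and folding enzymes that fell, 16 had a window and 6 of these held the element, namely Hspa5, Hsp90b1, Dnajc3, Creld2, Calr and Pdia6. Of the 2 with a window that did not pass, Canx held it. In the degradation list 2 of the 8 genes that fell held it, Syvn1 and Derl3, and none of the 13 transport genes that fell and had a window did. The windows of 4 of the 6 genes that fell are shown 5′ to 3′ on the strand of the gene, because they hold the element among genes that fell. Capitals mark each match, and in Creld2 and for the match nearer to the start site in Hsp90b1 it lies on the opposite strand and reads as its reverse complement.
Pdia6, chr12:17266339-17266638, plus strand: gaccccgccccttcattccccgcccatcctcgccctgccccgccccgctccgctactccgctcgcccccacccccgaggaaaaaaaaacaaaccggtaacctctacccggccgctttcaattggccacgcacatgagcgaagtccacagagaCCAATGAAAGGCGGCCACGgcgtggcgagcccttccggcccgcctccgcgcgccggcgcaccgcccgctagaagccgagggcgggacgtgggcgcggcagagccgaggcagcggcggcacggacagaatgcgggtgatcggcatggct
Creld2, chr15:88819396-88819695, plus strand: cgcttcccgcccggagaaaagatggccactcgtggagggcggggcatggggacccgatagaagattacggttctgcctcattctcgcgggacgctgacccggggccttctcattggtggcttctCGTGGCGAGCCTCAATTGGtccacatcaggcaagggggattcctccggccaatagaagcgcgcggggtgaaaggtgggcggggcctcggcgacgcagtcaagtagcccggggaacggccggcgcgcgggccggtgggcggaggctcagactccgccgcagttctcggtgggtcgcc
Hspa5, chr2:34771840-34772139, plus strand: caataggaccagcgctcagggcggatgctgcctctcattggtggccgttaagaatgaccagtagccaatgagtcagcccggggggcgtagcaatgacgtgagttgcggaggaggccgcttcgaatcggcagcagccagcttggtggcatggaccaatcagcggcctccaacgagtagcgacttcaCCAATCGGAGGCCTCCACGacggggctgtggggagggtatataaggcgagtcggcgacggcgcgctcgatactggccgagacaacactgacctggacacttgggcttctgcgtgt
Hsp90b1, chr10:86705395-86705694, minus strand: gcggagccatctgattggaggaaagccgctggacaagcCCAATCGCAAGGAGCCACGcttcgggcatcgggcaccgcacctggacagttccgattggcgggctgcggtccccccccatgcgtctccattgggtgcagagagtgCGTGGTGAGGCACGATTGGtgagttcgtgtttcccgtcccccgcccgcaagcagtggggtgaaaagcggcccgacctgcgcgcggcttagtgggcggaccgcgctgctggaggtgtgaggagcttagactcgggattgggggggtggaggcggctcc

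Counted from the start site, the element begins at -65 in Hspa5, -98 in Pdia6 and -126 in Creld2, and Hsp90b1 holds 2, at -212 and -107. Hsp90b1 (GRP94) and Pdia6 fell by 0.70 and 0.91 on the log2 scale and were named for these windows after their values were seen. The matches are a description of the letters in these windows, not of binding.

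**Figure D3:**
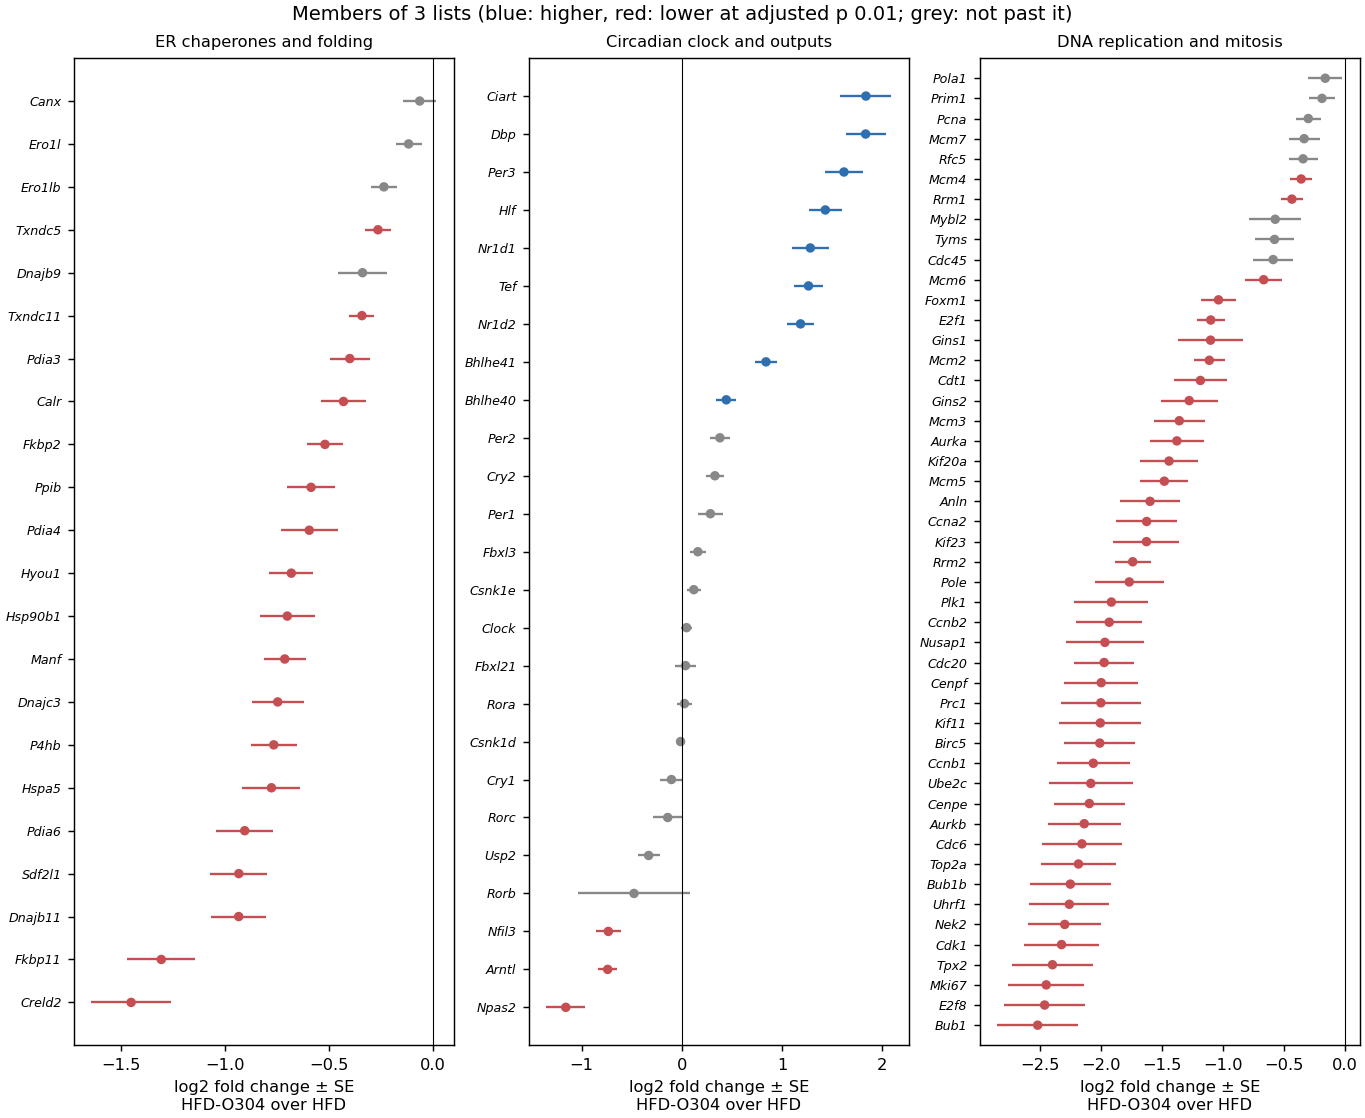
Log2 fold changes of HFD-O304 over HFD with their SE for all members of the lists of ER chaperones and folding (22), circadian clock (25) and DNA replication and mitosis (48), each on its own horizontal axis. Blue members rose, red members fell and grey members did not pass adjusted p 0.01. All points of the ER and replication lists lie left of 0, while the clock list splits into 9 members that rose and 3 that fell.

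Part of the cargo of the insulin granule was lower too. In the list of insulin synthesis and processing 8 of 17 genes fell and 1 rose (median -0.24). Ins2 ranged from 6876209 to 8682683 (median 7793106) in HFD and 5855427 to 7326890.2 (median 6539961) in HFD-O304, with overlapping groups (log2 fold change -0.24 ± 0.06 (SE), adjusted p = 0.00466), and it passed in 8 of 14 fits that left out a sample (adjusted p 0.000595 to 0.019). It did not pass without HFD replicate 2 or 5, or HFD-O304 replicate 1, 5, 6 or 7. Ins1 differed by -0.21 ± 0.06 and did not pass (adjusted p = 0.0127; 0.00308 to 0.0455 with a sample left out, past the threshold without HFD replicate 1, or HFD-O304 replicate 3 or 4). Iapp, the gene of amylin, which is released with insulin, ranged from 1230299 to 2181289.6 (median 1535168) and 955269.9 to 1121268 (median 1027203), with no overlap (log2 fold change -0.61 ± 0.09 (SE), adjusted p = 9.27e-05). Larger were the falls of the granule proteins Scg2 (medians 580703 and 281090.1, log2 fold change -0.99 ± 0.08 (SE), adjusted p = 1.02e-07) and Chgb (157353 and 54123, log2 fold change -1.30 ± 0.18 (SE), adjusted p = 4.56e-05). The amidating enzyme Pam and the granule phosphatase Ptprn also fell, with values of -0.71 and -0.65 (log2 fold changes). Chga did not pass (adjusted p = 0.302). The member that rose was Slc30a8, the zinc transporter of the granule (25152 against 36416, log2 fold change 0.52 ± 0.07 (SE), adjusted p = 2.34e-05).

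Other peptides moved in opposite directions. In the list of hormones and neuropeptides 5 of 21 rose and 5 fell (median 0.31). Npy, neuropeptide Y, which restrains insulin release, ranged from 84.4 to 173 (median 122) in HFD and 596 to 1448 (median 932) in HFD-O304 samples. The groups did not overlap and differed 7.76-fold (log2 fold change 2.96 ± 0.18 (SE), adjusted p = 2.34e-09), with an RD median of 322. Cartpt, the gene of the CART peptide, ranged from 281 to 734 (median 443) in HFD and 40.4 to 114.2 (median 57.0) in HFD-O304 (log2 fold change -2.81 ± 0.23 (SE), adjusted p = 1.05e-07). Vgf, a granin-like neuropeptide precursor, ranged from 2288 to 7196 (median 3464) in HFD and 427 to 1353 (median 590.4) in HFD-O304 (log2 fold change -2.41 ± 0.26 (SE), adjusted p = 2.14e-06). Cck, cholecystokinin, was read at 17.4 to 292 (median 50.05) in HFD and at 0.696 to 10.8 (median 3.53) in HFD-O304 samples (log2 fold change -4.25 ± 0.67, and -3.54 without HFD replicate 3). For all 3, every HFD-O304 sample lay below the HFD range.

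Several transcripts of the other hormone cells were higher. Gcg, the glucagon gene of alpha cells, ranged from 289699 to 608460.0 (median 395565) in HFD and 818262 to 1103657 (median 952011) in HFD-O304 samples. No HFD sample reached the HFD-O304 range, the difference was 2.30-fold (log2 fold change 1.20 ± 0.13 (SE), adjusted p = 2.41e-06), and the RD median was 827967. The alpha-cell transcription factors Irx1 and Irx2 rose by 1.05 and 1.12 on the log2 scale, and Dpp4, a peptidase, by 0.44. Against them, Ttr (transthyretin) and Gc (vitamin D-binding protein), which were on the same marker list, fell by 1.21 and 1.73. So 6 of 10 alpha-cell markers rose and 2 fell, against 4.18% and 6.75% of all genes tested. Their summed level was 11437 to 19137 CPM in HFD and 25886 to 33630.0 in HFD-O304 samples, and Gcg, the most abundant of them, makes up most of this sum.

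Sst, the somatostatin gene of delta cells, ranged from 44879.6 to 101156 (median 63298) and 79699.8 to 154914 (median 119792), with overlap (log2 fold change 0.87 ± 0.16 (SE), adjusted p = 0.000512). Of 5 delta-cell markers 4 rose (3 in replicates 1 to 4 alone, 0 in replicates 5 to 7 alone) and 0 fell, against 4.18% and 6.75% of all genes tested. Among those that rose were the factor Hhex (0.75) and the retinol carrier Rbp4 (0.78). Pyy, peptide YY, rose 1.84-fold and Ppy, pancreatic polypeptide, did not pass (adjusted p = 0.261). In bulk RNA of whole islets a change in the number of cells of a type and a change in RNA per cell cannot be told apart.

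**Figure D4:**
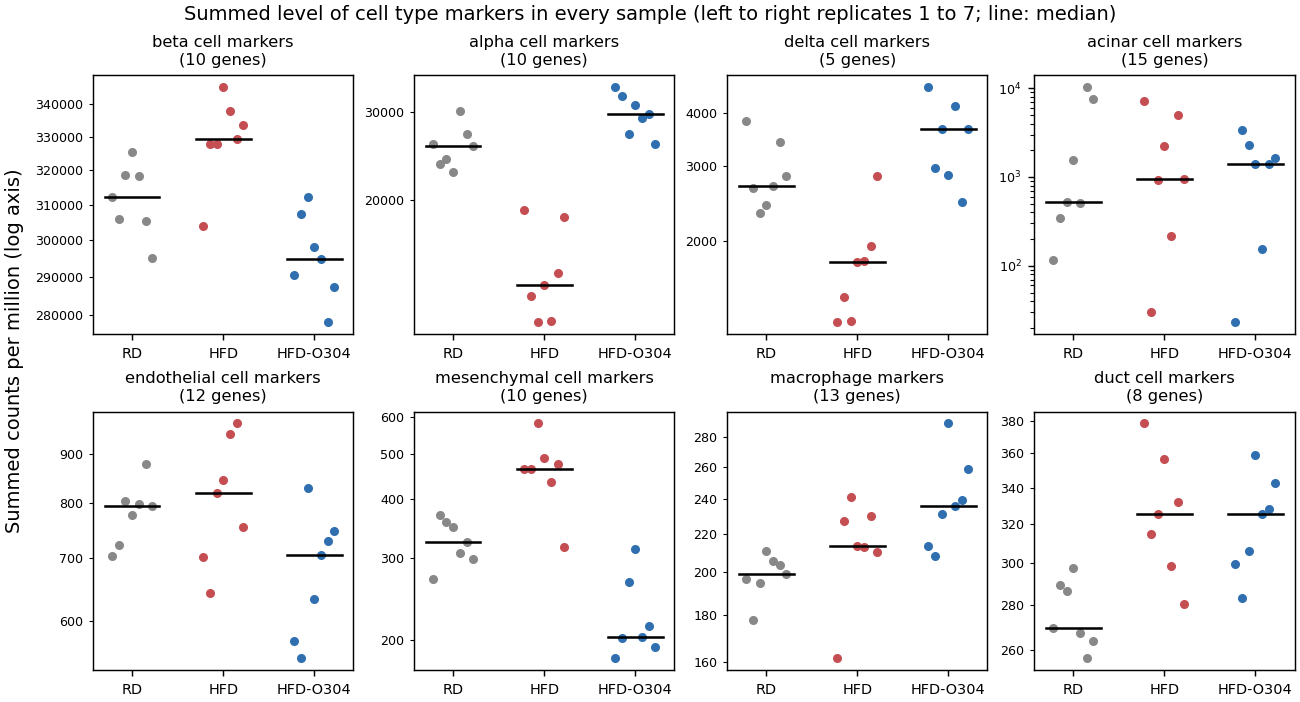
Summed CPM of the marker genes of 8 cell types in every RD (grey), HFD (red) and HFD-O304 (blue) sample, on a log axis for each type, with a line at the median of 7. Each sum follows mostly its most abundant genes, such as Gcg for alpha-cell and Rgs5 for mesenchymal markers. Alpha-cell and mesenchymal markers separate HFD from HFD-O304 samples in opposite directions with no overlap, and acinar markers range over 2 orders of magnitude within each group.

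Transcripts of dividing cells were fewer with O304. Of 48 genes of DNA replication and mitosis, 40 fell and 0 rose, all 48 fold changes were negative, and the median was -1.69. Mki67, the antigen Ki-67 of cycling cells, ranged from 196 to 1221 (median 677) in HFD and 70.7 to 183 (median 119.003) in HFD-O304 samples. The lowest HFD sample, replicate 7, lay close to the HFD-O304 range, and the other 6 lay between 456 and 1221 (log2 fold change -2.45 ± 0.31 (SE), adjusted p = 1.29e-05). Rrm2, the subunit of ribonucleotide reductase that limits DNA synthesis, had the smallest adjusted p of the list, with medians of 361 and 107.1 (log2 fold change -1.74 ± 0.15 (SE), adjusted p = 1.5e-07). The activator E2f1 fell 2.15-fold, the helicase subunit Mcm2 2.17-fold, and the mitotic regulators Cdc20 and Nek2 3.94-fold and 4.93-fold. Summed, these transcripts amounted to 214 to 547 CPM in HFD, 171 to 206 in HFD-O304 and 206 to 239 in RD samples. The HFD samples thus spanned a wide range, the HFD-O304 samples a narrow one below it. Within replicates 1 to 4 alone 40 of the genes fell and within replicates 5 to 7 alone 24.

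Among 20 G1 cyclins and inhibitors 6 fell and 1 rose. Ccne1, cyclin E1, fell 2.13-fold and Ccnd1, cyclin D1, fell 1.49-fold, whereas Ccnd2, the main D-type cyclin of mouse beta cells, rose 1.21-fold (medians 31633 and 37543, adjusted p = 0.00181). The inhibitor Cdkn1a (p21) fell together with the cyclins (1359 against 541, log2 fold change -1.07 ± 0.14 (SE), adjusted p = 1.31e-05).

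The circadian clock is a loop in which the activators CLOCK, BMAL1 (Arntl) and NPAS2 drive their own repressors and a group of output factors. In the clock list 9 of 25 rose and 3 fell (median 0.16). Of all 25 members, 9 lay wholly higher and 3 wholly lower, against 2.69% and 3.81% of all genes tested. These were the same 12 genes that passed. Genes that pass tend not to overlap, and among all genes that passed this held for 1549 of 2826. The output factor Dbp ranged from 194 to 551 (median 369.6) in HFD and 920.1 to 1913 (median 1236) in HFD-O304 samples, 3.57-fold higher (log2 fold change 1.83 ± 0.20 (SE), adjusted p = 2.53e-06). Its relatives Tef and Hlf, the repressor Per3 and the nuclear receptor Nr1d2 (REV-ERB beta) rose by 1.26, 1.43, 1.62 and 1.18 on the log2 scale. Of the activators, Arntl fell, with 890.0 to 1116 (median 977) in HFD and 459.8 to 724 (median 599) in HFD-O304 (log2 fold change -0.74 ± 0.09 (SE), adjusted p = 1.19e-05) and Npas2 fell, with medians of 223 and 89.0, while Clock did not pass (log2 fold change 0.05, adjusted p = 0.637). Nfil3 also fell, a repressor that competes with DBP (895 and 565). Clock, Npas2 and Nfil3 were named after their values were seen.

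For Dbp, Tef, Hlf and Per3 the HFD median lay near that of RD, at 369.6 and 368, 1335 and 1456, 131 and 163, and 303 and 325 normalised reads. For these genes the level in HFD-O304 stood apart from both groups. Other clock genes had a lower median in HFD than in RD. The medians were 977 and 1248 for Arntl, 223 and 287 for Npas2, 895 and 1011 for Nfil3, and 20.7 and 29.9 for Ciart. The time of day at which islets were taken from each group is not given in the sources used here.

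Among the DNA elements that drive clock genes are the E-box CACGTG, bound by the activators, and the D-box TTATGTAA, bound by DBP, TEF, HLF and NFIL3. Only these 2 elements were searched. Of the 12 clock genes that passed, 11 had a RefSeq window, of which Tef, Bhlhe41 and Ciart held an E-box and Per3 held a D-box. Of the 13 that did not pass, 9 had a window. An E-box was held by 2 of these, Per1 and Cry1, and a D-box by 0. Over all genes with a window the shares were 8.09% and 1.11%. Per3 and Ciart are shown because each holds the element more than once, with the matches in capitals. Ciart, a repressor of the activators, was named for this window after its value was seen.
Ciart, chr3:95882179-95882478, minus strand: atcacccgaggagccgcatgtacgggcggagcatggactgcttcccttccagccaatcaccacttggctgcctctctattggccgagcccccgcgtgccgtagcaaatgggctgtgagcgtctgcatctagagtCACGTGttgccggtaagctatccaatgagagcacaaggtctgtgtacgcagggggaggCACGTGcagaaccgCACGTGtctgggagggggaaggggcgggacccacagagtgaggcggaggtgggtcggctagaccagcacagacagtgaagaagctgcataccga
Per3, chr4:151044616-151044915, minus strand: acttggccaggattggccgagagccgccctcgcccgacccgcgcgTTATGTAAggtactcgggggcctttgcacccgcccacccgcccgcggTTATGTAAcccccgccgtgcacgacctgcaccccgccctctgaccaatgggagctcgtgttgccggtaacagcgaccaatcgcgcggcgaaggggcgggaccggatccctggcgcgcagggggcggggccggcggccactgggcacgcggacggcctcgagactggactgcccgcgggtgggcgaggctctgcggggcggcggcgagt

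The E-boxes of Ciart start at -116, -58 and -44 and the D-boxes of Per3 at -205 and -158 from the start site. Ciart ranged from 9.92 to 32.2 (median 20.7) in HFD and 39.6 to 117.6 (median 78.7) in HFD-O304 samples (log2 fold change 1.84 ± 0.25 (SE), adjusted p = 3.42e-05), and Per3 from 150.1 to 401 (median 303) and 587 to 1249 (median 841) (log2 fold change 1.62 ± 0.19 (SE), adjusted p = 7.12e-06), neither with overlap. A direct repeat of AGGTCA with 1 base between the copies, the binding site of PPAR with RXR, was found in none of the 5 lipid genes that passed and had a window, and in 0.0481% of all genes. An exact match is so rare that 5 genes cannot tell whether these genes hold such sites in other letters or outside the windows.

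Receptors and channels that tune insulin release changed gene by gene. Trpm5, a cation channel that follows glucose-driven calcium, ranged from 479 to 1408 (median 732) in HFD and 4023 to 5746 (median 4532) in HFD-O304 samples, 5.27-fold apart with no overlap (log2 fold change 2.40 ± 0.18 (SE), adjusted p = 2.62e-08), and the RD median was 1899.9. In its list of channels and exocytosis 6 of 31 rose, among them the potassium channel Kcnk3 (0.61) and the priming factor Cadps (0.33), and 5 fell (median 0.12). Of 32 receptors and cAMP genes 7 rose and 3 fell (median -0.01). The incretin receptor Glp1r was 1.49-fold higher (22650.2 and 31719, log2 fold change 0.58 ± 0.09 (SE), adjusted p = 0.00018) and the lipid-sensing receptor Gpr119 1.62-fold higher.

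Several receptors differed more. Cnr1, the cannabinoid receptor CB1, ranged from 9.92 to 30.4 (median 21.7) in HFD and 110.4 to 203 (median 133) in HFD-O304 (log2 fold change 2.82 ± 0.23 (SE), adjusted p = 8.81e-08), and Crhr1, the receptor of corticotropin-releasing hormone, from 8.01 to 27.8 (median 14.2) in HFD and 75.8 to 121.9 (median 95.3) in HFD-O304 (log2 fold change 2.60 ± 0.23 (SE), adjusted p = 2.28e-07). Mc5r, a melanocortin receptor, was lower, with 152 to 356 (median 306) in HFD and 8.01 to 50.3 (median 15.7) in HFD-O304 (log2 fold change -3.72 ± 0.31 (SE), adjusted p = 1.12e-07). None of these 3 had overlapping groups. The short-chain fatty acid receptor Ffar2 fell 1.39-fold.

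AMPK, the kinase that O304 targets, is regulated mainly through its activity. Of 19 genes for AMPK subunits, upstream kinases and partners 4 rose and 0 fell (median 0.03). The regulatory beta subunit Prkab2 ranged from 345 to 435 (median 395) in HFD and 586 to 727 (median 660.3) in HFD-O304 samples, with no overlap (log2 fold change 0.75 ± 0.07 (SE), adjusted p = 4.73e-07). The gamma subunit Prkag2 and the folliculin partner Fnip2 rose by 0.37 and 0.66 on the log2 scale.

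Transcripts of the mitochondrial genome were higher in 4 of 13 cases (median 0.44; 1 in replicates 1 to 4 alone, 6 in replicates 5 to 7 alone), with mt-Nd5 at 86415 in HFD and 122111 in HFD-O304 (log2 fold change 0.49 ± 0.06 (SE), adjusted p = 1.54e-05) and mt-Co1 at 223292 and 293003 (adjusted p = 0.000939). Of nuclear genes of oxidative phosphorylation 0 of 37 rose and 3 fell (median -0.08). The share that fell, 8.11%, was near the 6.75% of all genes tested. In antioxidant defence 4 of 30 rose and 6 fell. The metal-binding metallothioneins Mt1 and Mt2 rose 2.21-fold and 2.67-fold and the glutathione transferase Gstm1 2.08-fold. Against these, the secreted peroxidase Gpx3 fell 2.17-fold, the transferase Gsto2 3.66-fold and the extracellular dismutase Sod3 2.12-fold, all without overlap between the groups.

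In the remaining lists, breakdown of branched-chain amino acids had 0 higher and 4 lower of 21, autophagy and lysosome 0 and 6 of 30, insulin and IGF signalling 4 and 3 of 28, interferon and MHC class I 4 and 3 of 26, and immediate early genes, which react to handling, 0 and 2 of 20. Their medians lay between -0.08 and 0.19. The shares ran from 0% to 15.4% higher and from 10% to 20% lower, against 4.18% and 6.75% of all genes tested.

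**Figure D5:**
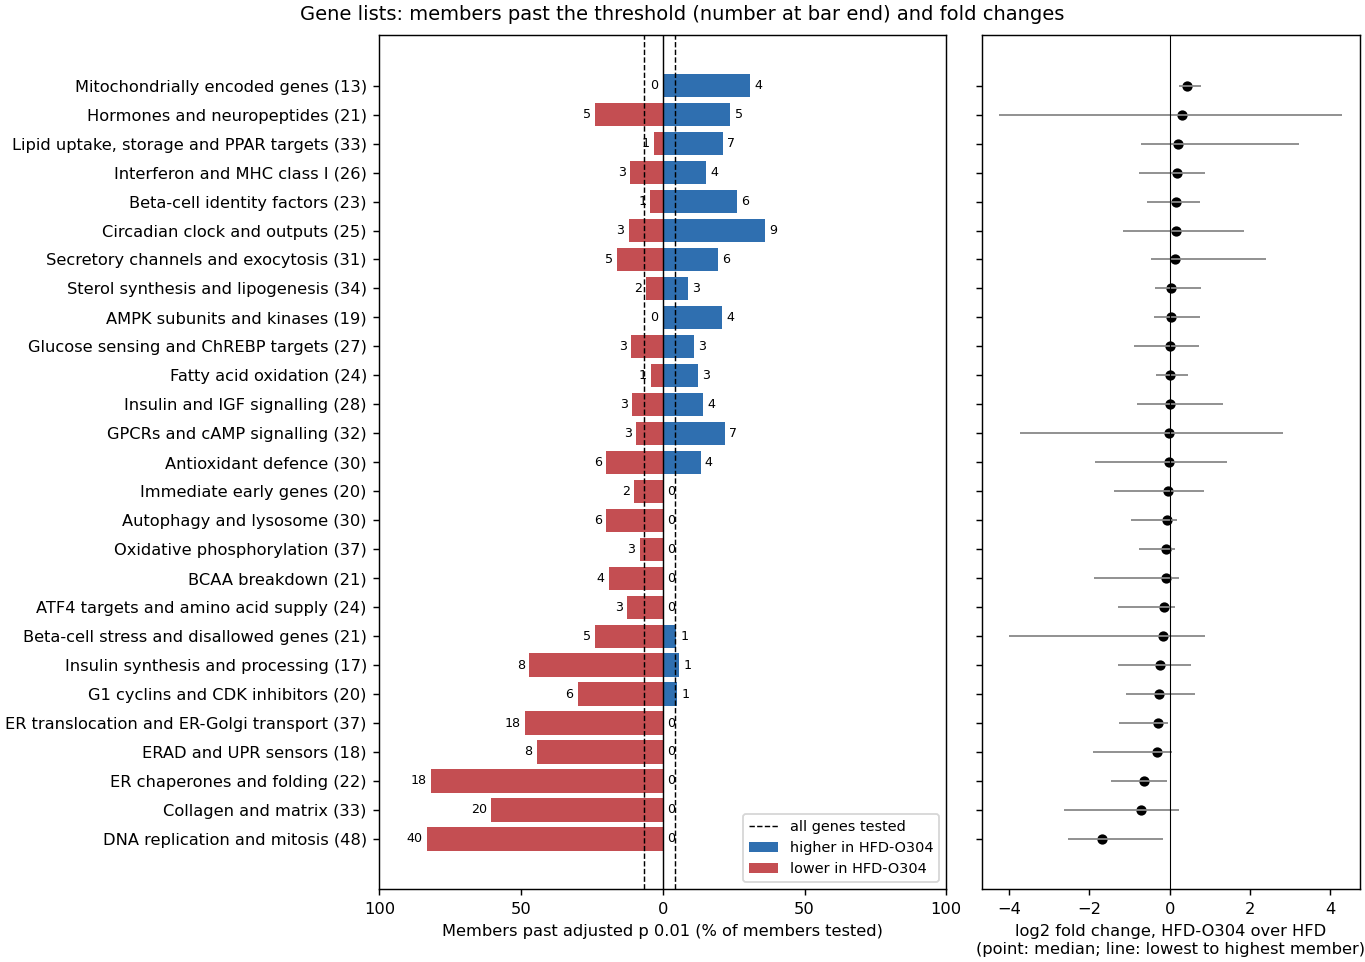
The left panel gives, for each of 27 gene lists with the number of members tested, the percentage past adjusted p 0.01 higher (blue) and lower (red) in HFD-O304, with the number of members at the end of each bar and dashed lines at the shares over all genes (4.18% and 6.75%). The right panel gives the median log2 fold change (point) and the lowest to highest member (line). The bars for lower genes are longest for DNA replication, ER chaperones and collagen, and the bar for higher genes is longest for the clock list.

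Many genes of matrix and several of the cells around vessels were lower. Of 33 collagen and matrix genes 20 fell and 0 rose (median -0.71), and without HFD replicate 2 and HFD-O304 replicates 1 and 2 there were 10 that fell. Fn1, fibronectin, ranged from 138 to 768 (median 441) in HFD and 25.8 to 212 (median 49.8) in HFD-O304 samples, with HFD-O304 replicate 4 alone inside the HFD range (log2 fold change -2.62 ± 0.39 (SE), adjusted p = 6.76e-05). Col4a1, a basement membrane collagen, had medians of 9205 and 4967 and Col3a1, an interstitial one, 1294 and 380.0. Acta2 (smooth muscle actin), Rgs5 and Pdgfrb, which mark pericytes, fell 3.33-fold, 2.22-fold and 1.95-fold with no overlap. In all, 5 of 10 mesenchymal markers fell, against 6.75% of all genes tested. The sum of the 10, most of it from the abundant Rgs5, was 317 to 582 CPM in HFD and 183 to 313 in HFD-O304 samples. The endothelial markers Pecam1 and Tek fell by 0.51 and 0.60 on the log2 scale.

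Few markers of macrophages, neural cells and acinar cells passed. Macrophage markers had 1 higher and 0 lower of 13, neural markers 0 and 1 of 6, and acinar markers 0 and 0 of 15. Over all genes tested 4.18% rose and 6.75% fell. All 15 acinar fold changes were negative, though none passed (median log2 fold change -0.80). Of 8 duct-cell markers 3 rose (37.5%, against 4.18% of all genes tested), among them Krt19 (70.8 and 170.0), and 2 of the 8 lay wholly higher in HFD-O304. Log2 fold changes of the 8 ran from -0.34 to 2.68, and their sums overlapped (280.2 to 378 and 283 to 359 CPM). The part of cell composition in the falls of matrix and cell cycle genes was not tested.

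Several of the largest changes lay outside these lists. Downwards, the predicted gene Gm9195 stood at 110.4 to 1363 (median 413) in HFD and 0 to 10.8 (median 2.61) in HFD-O304 samples (log2 fold change -6.69 ± 0.56). Csn3 (kappa-casein), Anxa10, Lrrc71, Mdga1, Wdr72 and the receptor kinase Ros1 fell by 3.02 to 3.94 on the log2 scale, from HFD medians of 84.1 to 139 normalised reads, and without HFD replicate 1 the log2 fold change of Anxa10 was -3.21 in place of -3.92. Each gene from Csn3 to Ros1 had higher values in HFD replicates 1 to 4 than in HFD replicates 5 to 7. For Csn3 these were 126 to 218 and 23.5 to 58.6. Gm2115 and Aass, the first enzyme of lysine breakdown, were abundant and fell 9.09-fold and 6.14-fold (log2 fold change -2.62 ± 0.15 (SE), adjusted p = 6.9e-10). Nbl1, a BMP antagonist, Srl, a calcium-binding protein, and Me3, mitochondrial malic enzyme, were among the 5 falling genes with the smallest adjusted p and went from 4013 to 1200.5, from 368 to 106.8 and from 914 to 299 in median.

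Upwards, Nnat, neuronatin, an imprinted gene that supports insulin secretion, ranged from 79.3 to 263 (median 163) in HFD and 706 to 1397 (median 1121) in HFD-O304 samples (log2 fold change 2.66 ± 0.19 (SE), adjusted p = 1.49e-08). Olfm2, Msln (mesothelin), the cadherin Cdh7 and the zinc and manganese transporter Slc39a8 rose by 2.03 to 2.54 on the log2 scale without overlap, and the flavin monooxygenase Fmo1 rose 2.38-fold with one of the 5 smallest adjusted p among rising genes (1.19e-08). Of transcripts without a coding annotation, lincRNAs had 24 higher and 41 lower and antisense RNAs 25 and 19. The antisense transcript E530011L22Rik rose most among non-coding genes with a mean of at least 50 and no overlap (24.6 and 88.8) and the lincRNA Gm20754 was among the 3 of them that fell most (81.1 and 16.7).

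Whether the O304 difference depended on the set of libraries was tested by an interaction term. No gene passed at adjusted p under 0.01 (edgeR; 1115 genes at an unadjusted p under 0.05), and the smallest adjusted p was 0.0399, for Chgb and Arrdc4. In replicates 1 to 4 the fall of Chgb was 1.61 on the log2 scale and in replicates 5 to 7 it was 0.67, and HFD replicates 1 to 4 lay between 157353 and 185209 and HFD replicates 5 to 7 between 66963 and 90735. For Arrdc4, replicates 1 to 4 ranged from 1294 to 1714 in HFD and from 635 to 754 in HFD-O304. Its replicates 5 to 7 overlapped, at 558 to 726 in HFD and 572 to 618 in HFD-O304. The same split, with the larger difference in replicates 1 to 4, was seen for Mt1, Mt2 and Gpx3 (interaction adjusted p = 0.0575 each). Txnip differed by -1.13 in replicates 1 to 4 and by 0.09 in 5 to 7 (interaction adjusted p = 0.207). By contrast, Cd36 and Aldh1a3 differed by 3.04 and -3.87 in replicates 1 to 4 and by 3.42 and -4.20 in replicates 5 to 7. Fitted on replicates 1 to 4 alone, 1569 genes passed, and on replicates 5 to 7 alone 1232, with 2824 and 2819 of the 2826 genes keeping their direction.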

How the data were processed

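RNA-seq was done on 21 islet samples, and the 14 HFD and HFD-O304 samples were compared by title. Per the labels and methods, the authors sequenced 50-nt read pairs on a NovaSeq, aligned them to GRCm38 with STAR (version not given in the sources used here) and deposited counts of read pairs per Ensembl 96 gene. The deposited counts come with 3 strand settings, without a statement of which was analysed. The column that held most read pairs on genes, 28.8 to 35.7 times its opposite, was taken. Pairs mapping to several places are not in these counts, so genes with near-identical copies may be understated. In all, 18.5% to 24.6% of pairs per sample were not counted on a gene. They comprise unmapped pairs (5.56% to 10.5%), pairs mapping to several places (7.33% to 9.03%), ambiguous pairs, and pairs on no gene in this strand setting (2.97% to 5.12%).

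Genes with a summed count of at least 10 were tested with edgeR's quasi-likelihood test (edgeR 4.0.16, R 4.3.3, TMM scaling, no covariate), with Benjamini-Hochberg adjustment over all 25849 genes and a threshold of 0.01. Every adjusted p in the text is from this tool. Normalised read counts are counts divided by DESeq2 1.42.0 size factors over the 21 samples. Their levels were not scaled by gene length and are not compared between genes. Each sample is a pool of mice, and p-values measure the spread between pools. Where several identifiers shared a symbol, the one with most reads was used.

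Named genes were those with the largest or most certain differences, those the study discusses, the most abundant genes, up to 6 passing and 2 non-passing members of each gene list, and cell-type markers. Members and lists were chosen with earlier results of these data known. Promoter windows are RefSeq, GRCm38.p6. Tables used Python 3.11.15, pandas 2.3.3 and matplotlib 3.10.9. Alternatives changed the scaling, filter, strand, samples, covariates, depth or tool (a DESeq2 Wald test), and left out each sample in turn. The test scripts were tested on simulated data. The RD samples served for levels, for the size factors and in one alternative fit. A few genes are not reported here.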

Additional observations from a re-analysis of the deposited data

Results flagged for a closer look

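Of 278 groups of 7 samples examined for the genes named, 13 had a highest or lowest sample whose gap to its nearest neighbour, divided by the range of the group, was above Dixon's 95% critical value. By chance about 1 in 20 groups is expected to show this. Values are normalised read counts.

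In HFD replicate 1, Fabp5 (185.6, nearest 142.2), Gm9195 (1363, nearest 555.5), Anxa10 (382.5, nearest 109.2) and Wdr72 (473.1, nearest 176.9) were the highest of the group and Nkx6-1 (7222) was the lowest. In HFD replicate 7, Sst (101200.0), Irx1 (204.3) and Rbp4 (3607) were the highest and Col4a1 (6158, nearest 8509) the lowest. In HFD replicate 4, Chga (597400.0) was the highest. In HFD-O304 replicate 4, Cnr1 (203, nearest 142.4), Fn1 (211.8, nearest 91.4) and Col3a1 (968.1, nearest 438.7) were the highest.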

How the results depend on the processing

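The 2826 genes (1081 higher, 1745 lower) became 4768 (2048 and 2720) at an adjusted p under 0.05, 1569 (546 and 1023) in replicates 1 to 4 only, 1232 (415 and 817) in replicates 5 to 7 only and 1763 (686 and 1077) without HFD replicate 2 and HFD-O304 replicates 1 and 2, a choice made after seeing the data. These fits hold fewer samples or use another threshold. Leaving out each sample in turn gave 2280 (without HFD-O304 replicate 5) to 3242 (without HFD replicate 7) genes, 849 to 1317 higher and 1390 to 1925 lower. The DESeq2 Wald test gave 3837, RLE scaling 2857, upper-quartile scaling 2849, no filter 2818, a stricter filter 3037, unstranded counts 2759, all 21 samples in the fit 3230, library set as a covariate 3422, an acinar marker covariate 2683 and thinning to the shallowest library 2432. The interaction with library set gave 0 to 2 genes with a sample left out, 2 of them without HFD replicate 4.

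A replicate block in the fit gave 3250 genes, and 2714 of these were among the 2826. Same-numbered samples correlated by -0.345 to 0.504 over 13243 genes, over 0.1 in 5 of 7 pairs, and 2 of 7 correlated best with their own number; the labels name no shared animal, litter or day, and same-numbered samples fall in the same library set.

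Of the 128 named genes that passed, none changed direction under any setting, and 124 passed with every sample left out in turn, while 11 did not pass without those 3 libraries, 10 did not in replicates 1 to 4 only and 26 did not in replicates 5 to 7 only. No list count of 4 or more moved by over 1.5 times when 1 sample was left out. Of the named genes that did not pass in the first place, Txnip turned to 0.0868 on the log2 scale in replicates 5 to 7 only. Pdx1 turned to 0.0363 there, to 0.0049 without those 3 libraries, and ranged from -0.0644 to 0.0122 with a sample left out. Xbp1 turned to 0.0173 in replicates 1 to 4 only. The cause was not tested. Depth limits genes with few reads, most of all in HFD-O304 replicate 2.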
